A study of Saccharomyces cerevisiae with 14 samples.

Results

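The autophagy genes and vacuolar proteases of the wine yeast were followed over a Riesling fermentation in a wild-type strain and in a strain without NSF1. The genes were taken by name from the annotation of the array: every gene whose symbol is ATG followed by a number, and the proteases PEP4, PRB1, PRC1, CPS1, LAP3 and LAP4. The rule found 40 genes among 5449 S. cerevisiae genes on the array, of which 34 were ATG genes and 6 were proteases, and each was read by 1 probe set, the group of probes that reports a transcript on an Affymetrix array. LAP4, which encodes aminopeptidase I, is listed under its other symbol APE1 and is called APE1 here. ATG6, ATG24 and ATG42 were not found under those symbols, but ATG6 and ATG24 were measured as VPS30 and SNX4.

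M2 is an industrial wine strain and was the wild type, and M2 nsf1∆ was derived from it by replacing both copies of NSF1, which encodes a zinc-finger transcription factor (also named USV1), with KanMX. How many independent nsf1∆ clones were fermented is not given in the sources used here. Both strains fermented Riesling must without shaking and received no further treatment, and their RNA was taken 24 h after inoculation and when 20% and 85% of the sugars were fermented (the labels speak of glucose). Of the 7 arrays of each strain 3 hold the 85% stage and each earlier stage has 2, and the labels call them biological replicates without saying whether each came from its own vessel.

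In autophagy a double membrane closes around cytoplasm or a chosen organelle, and the resulting autophagosome fuses with the vacuole, where lipases and proteases break the contents down for reuse. In budding yeast the Atg1 kinase complex starts the process at the vacuole when TOR signalling falls, a phosphatidylinositol 3-kinase and Atg9 vesicles supply the membrane, and ubiquitin-like conjugation reactions attach Atg8 to it. Receptor proteins such as Atg32 tie mitochondria, endoplasmic reticulum, nucleus or peroxisomes to Atg8, and the related cytoplasm-to-vacuole targeting pathway, which runs in growing cells, delivers aminopeptidase I.

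The values are RMA log2 intensities, so a difference of 1 is a doubling of the signal, and levels of different probe sets were not set against each other. Array medians over S. cerevisiae probe sets ran from 8.87 to 8.95. The S. pombe probe sets of the same array served as background, with a median of 3.06 and a 95th percentile of 3.62, and all 40 genes lay above 3.62 on every array. The deleted gene itself fitted the labels. NSF1 read 8.92 to 9.10 at 24 h, 9.98 to 10.71 at 20% and 12.90 to 13.19 at 85% in M2, and 2.95 to 4.28 on the nsf1∆ arrays at 24 h and 20%. At 85% the nsf1∆ arrays gave 3.63, 3.95 and 5.90, so replicate 3 stood above the other nsf1∆ arrays.

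The nsf1∆ replicates at 24 h also stood apart from each other. In 35 of the 40 genes replicate 2 read higher than replicate 1, against 18 of 40 in M2, and this held for 17 of the 17 genes that rose between 24 h and 20% in M2. It was not confined to these genes, because 73.4% of all 1455 probe sets that rose early in M2 were higher on that array too. The share of all probe sets higher on that array was not counted. For nsf1∆ the counts over the 40 genes from 24 h to 20% and from 24 h to 85% are therefore also given without each of these arrays. Counts for parts of the 40 genes and for other gene lists are not given in this way. In a bulk sample a smaller share of one kind of cell and less RNA per cell cannot be told apart. Markers of other cell states rose along the fermentation. The array means of 10 haploid-specific genes were 5.65 at 24 h and 7.16 to 7.34 at 85% in M2, and those of 14 meiosis and sporulation genes 4.88 to 4.94 and 6.67 to 6.82. From 24 h to 85% in M2, 8 of the 10 haploid-specific and 12 of the 14 sporulation genes rose and 0 and 1 fell. Of all probe sets 38.0% rose and 35.2% fell over this span in M2. In nsf1∆ 8 and 13 rose and 1 and 1 fell, beside 37.0% and 36.0% of all probe sets. The array means at 85% in nsf1∆ were 7.34 to 7.42 and 6.99 to 7.09. The part of such cells in the results below was not tested. The signal of the 3′ minus that of the 5′ control probe set, a measure of RNA integrity, also moved with stage for some genes. For ACT1 it averaged 0.59, 0.77 and 0.95 at 24 h, 20% and 85% in M2 and 0.51, 0.81 and 0.95 in nsf1∆, whereas for SRB4 it fell from 3.95 to 3.14 in M2 and from 3.84 to 3.01 in nsf1∆. Its part in the results was not tested either.

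The 40 genes did not move as a block. Differences were tested with limma over 5498 probe sets, with Benjamini-Hochberg adjusted p under 0.05 as the threshold and one estimate of spread for all 6 groups. From 24 h to 85% in M2, 20 of the 40 genes rose, 10 fell and 10 did not pass, where 38.0% of all probe sets rose and 35.2% fell. In nsf1∆ 18 rose, 9 fell and 13 did not pass, beside 37.0% and 36.0% of all probe sets. The median change of the 40 genes was 0.40 in M2 and 0.07 in nsf1∆, beside 0.05 and 0.03 over all probe sets. All 18 genes that rose in nsf1∆ had also risen in M2, where ATG33 and ATG11 rose in addition, and all 9 that fell in nsf1∆ had fallen in M2, where ATG31 fell in addition. No gene rose in one strain and fell in the other. The same overlap over all probe sets was not counted, so nothing particular to these genes is read from it. Without nsf1∆ replicate 1 at 24 h, 12 genes rose and 8 fell in nsf1∆, and without replicate 2, 18 rose and 8 fell, while the share of all probe sets called in either direction went from 73.0% to 66.3% and 66.5%.

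**Figure D1:**
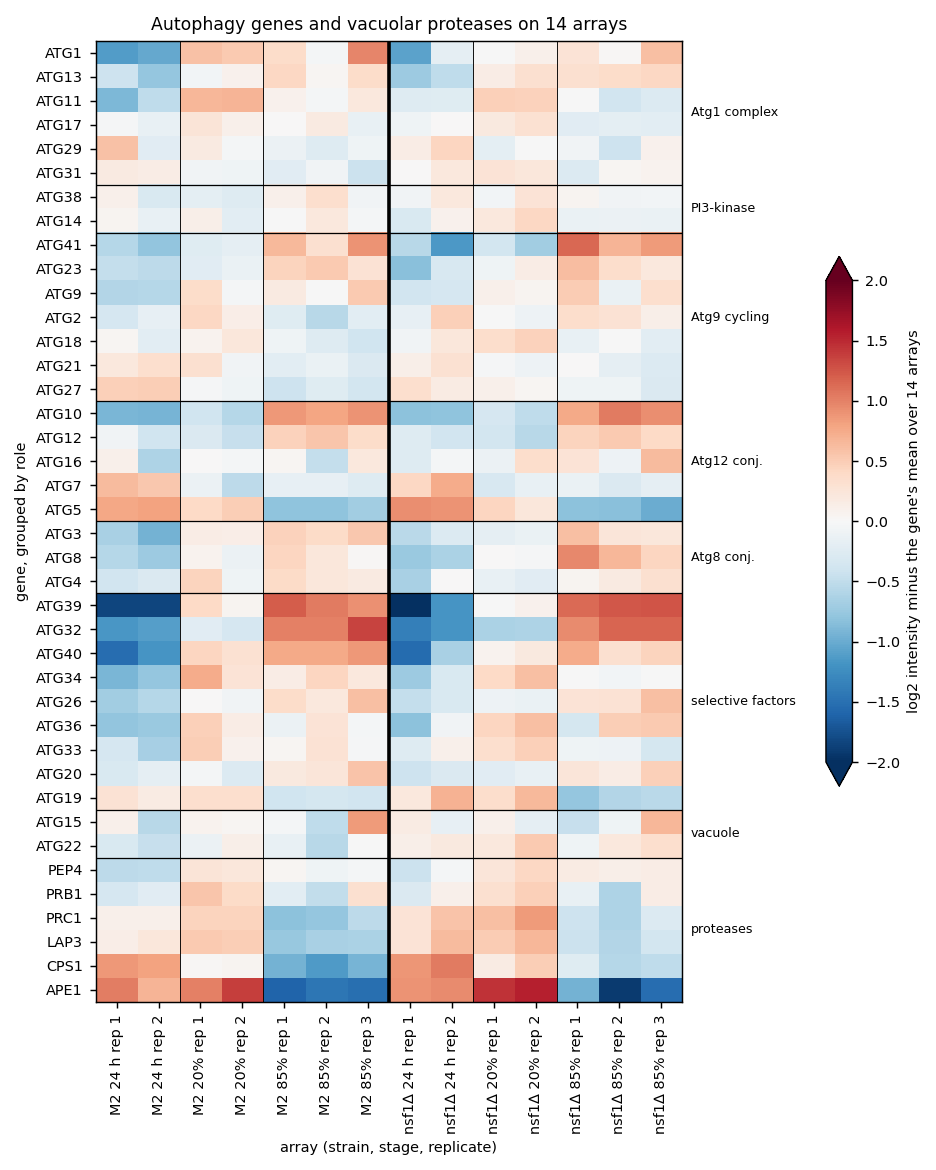
Log2 intensity of the 40 genes (rows, grouped by role) on the 14 arrays (columns, by strain, stage and replicate), each minus the gene's mean over the 14 arrays, with colours ending at -2 and 2. ATG39, ATG32, ATG40 and ATG10 run from blue at 24 h to red at 85% in both strains, and APE1, CPS1 and ATG5 run the other way.

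The Atg1 kinase complex was divided. In M2 3 of its 6 genes rose from 24 h to 85% (ATG1, ATG13 and ATG11), ATG31 fell, and ATG17 and ATG29 did not pass. Over this span 38.0% of all probe sets rose and 35.2% fell in M2. ATG1, the kinase that starts autophagosome formation, read 7.37 and 7.47 at 24 h, then 9.07 and 9.01 at 20%, and 8.86, 8.45 and 9.46 at 85% in M2, and its nsf1∆ arrays read 7.43 and 8.32, 8.49 and 8.59, and 8.77, 8.51 and 9.09. The early and late arrays did not overlap in either strain, but the nsf1∆ replicates at 24 h lay far apart. The change from 24 h to 85% was 1.50 in M2 (SE 0.28, limma adjusted p = 0.00027), a 2.83-fold rise, and 0.92 in nsf1∆ (SE 0.28, adjusted p = 0.0095), which became 0.47 without nsf1∆ replicate 1 at 24 h (adjusted p = 0.187). ATG13, the regulatory subunit on which TOR acts, rose by 0.86 and 0.98 (adjusted p = 0.00014 and 4.6e-05).

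ATG11, the scaffold of selective autophagy, peaked in the middle of the fermentation. Its M2 arrays read 8.05 and 8.43 at 24 h, then 9.61 and 9.62 at 20%, and 9.03, 8.90 and 9.15 at 85%. Its nsf1∆ arrays read 8.68 and 8.69, 9.42 and 9.39, and 8.93, 8.56 and 8.67. In both strains the 20% arrays lay above all others, and at 85% the nsf1∆ arrays were back among those of 24 h. ATG11 rose by 1.37 (SE 0.15, limma adjusted p = 1.5e-05) and then fell by 0.58 (SE 0.14, adjusted p = 0.0025) in M2, and in nsf1∆ rose by 0.72 (SE 0.15, adjusted p = 0.0029) and fell by 0.69 (SE 0.14, adjusted p = 0.00076). The scaffold of starvation-induced autophagy is a different one, made of Atg17, Atg29 and Atg31. ATG17 changed by 0.10 in M2 and -0.17 in nsf1∆ from 24 h to 85%, ATG29 by -0.34 and -0.42, and none of these passed. ATG31 fell in M2 (-0.41, adjusted p = 0.016) and changed by -0.15 in nsf1∆ (adjusted p = 0.33). The ATG31 call was lost without any one of M2 replicate 1 at 24 h (adjusted p = 0.0779), M2 replicate 2 at 24 h (0.0562) and M2 replicate 3 at 85% (0.0644), and ATG29 passed in M2 without replicate 2 at 24 h (-0.74, adjusted p = 0.00651). In nsf1∆ ATG29 passed when the quantile normalization was repeated (-0.56, adjusted p = 0.0205) and without either M2 array of 24 h, which changes the shared spread alone (adjusted p = 0.0341 for each).

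The phosphatidylinositol 3-kinase subunits with ATG names showed little change. ATG14, which directs the kinase to the site of autophagosome formation, changed by 0.10 in M2 and -0.02 in nsf1∆ from 24 h to 85%, and ATG38, which links its subunits, by 0.23 and -0.09, and none of the 4 changes passed. In nsf1∆ ATG14 read 7.10 and 7.48 at 24 h, then 7.62 and 7.82 at 20%, and 7.26, 7.28 and 7.27 at 85%, and its fall over the late step of 0.45 passed (SE 0.15, limma adjusted p = 0.016) until nsf1∆ replicate 2 at 20% was left out (-0.35, adjusted p = 0.144). In M2 the subunits that this kinase shares with other vesicle routes were lower at 85% than at 24 h. Over this span 35.2% of all probe sets fell in M2. VPS15 and VPS34, its regulatory and catalytic subunits, fell by 1.86 and 1.06 in M2 (adjusted p = 2e-08 and 4.3e-05), and VPS30, the former ATG6, fell by 0.70 (adjusted p = 0.0092).

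Of the 7 genes for Atg9, its cycling and the lipid transfer machinery, 3 rose from 24 h to 85% (ATG41, ATG23 and ATG9). The calls were the same in both strains, with 2 lower (ATG27 and ATG21) and ATG2 and ATG18 not past the threshold. These counts lay near the shares of all probe sets, 38.0% higher and 35.2% lower in M2 and 37.0% and 36.0% in nsf1∆. ATG41, whose product binds Atg9, read 9.14 and 8.92, 9.48 and 9.53, and 10.37, 10.04 and 10.61 at the 3 stages in M2, and 9.16 and 8.57, 9.35 and 9.02, and 10.87, 10.40 and 10.58 in nsf1∆. All 85% arrays lay above all earlier arrays, while the nsf1∆ arrays at 24 h and 20% overlapped. The rise was 1.31 in M2 (SE 0.21, limma adjusted p = 6.3e-05) and 1.75 in nsf1∆ (SE 0.21, adjusted p = 4.3e-06), most of it between 20% and 85%.

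ATG23, a peripheral membrane protein that travels with Atg9, read 7.09 and 7.05 at 24 h, then 7.34 and 7.42 at 20%, and 8.01, 8.08 and 7.84 at 85% in M2. In nsf1∆ it read 6.73 and 7.24, 7.47 and 7.72, and 8.18, 7.92 and 7.78. The stages did not overlap in either strain, and the rise over the fermentation was 0.91 (SE 0.16, adjusted p = 0.00018) and 0.97 (SE 0.16, adjusted p = 0.00011). ATG9 itself, a lipid scramblase in the membrane of these vesicles, rose by 0.81 and 0.60 (adjusted p = 0.0018 and 0.013), the latter becoming 0.57 without nsf1∆ replicate 1 at 24 h (adjusted p = 0.0632) and 0.46 without nsf1∆ replicate 1 at 85% (adjusted p = 0.0503).

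ATG27, a membrane protein needed for the cycling of Atg9, went the other way. It read 10.30 and 10.31 at 24 h and 9.42, 9.58 and 9.46 at 85% in M2, and 10.17 and 10.00, then 9.74, 9.74 and 9.54, in nsf1∆. The groups did not overlap in either strain. It fell by 0.82 in M2 (SE 0.11, adjusted p = 1.7e-05) and by 0.41 in nsf1∆ (SE 0.11, adjusted p = 0.0047), or by 0.33 without nsf1∆ replicate 1 at 24 h (adjusted p = 0.055). ATG18, which works together with Atg2, fell between 20% and 85% (-0.39 and -0.54, adjusted p = 0.023 and 0.0038) and did not pass over the whole fermentation. Its M2 call was lost without M2 replicate 2 at 20% (adjusted p = 0.138) or M2 replicate 3 at 85% (0.0793), with array weights (-0.28, 0.0989) and with the replicate number as a block (0.056). ATG21, a relative of Atg18 that binds phosphatidylinositol 3-phosphate, fell by 0.49 and 0.36 (adjusted p = 0.0055 and 0.029). The M2 call was lost without M2 replicate 2 at 24 h (adjusted p = 0.0526), and the nsf1∆ call without nsf1∆ replicate 2 at 24 h (0.185), replicate 2 at 85% (0.0649) or replicate 3 at 85% (0.0924), or with the replicate block (0.0688).

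Of the 5 genes of Atg12 conjugation, whose products act in one reaction chain, 2 rose and 2 fell from 24 h to 85% in each strain. This split lay near that of all probe sets, of which 38.0% rose and 35.2% fell in M2. In nsf1∆ 37.0% rose and 36.0% fell. ATG10, the E2-like enzyme that passes Atg12 on, read 8.00 and 7.99 at 24 h, then 8.51 and 8.34 at 20%, and 9.79, 9.70 and 9.81 at 85% in M2. In nsf1∆ it read 8.09 and 8.11, 8.58 and 8.40, and 9.67, 9.95 and 9.84. Replicates lay close together and no stage overlapped with another. ATG10 rose by 1.77 in M2 (SE 0.12, limma adjusted p = 2e-08) and 1.72 in nsf1∆ (SE 0.12, adjusted p = 2.5e-08), a 3.41-fold and a 3.28-fold rise.

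ATG5, the protein to which Atg12 is attached, read 10.86 and 10.89 at 24 h, then 10.47 and 10.57 at 20%, and 9.27, 9.27 and 9.39 at 85% in M2, and 11.01 and 10.98, 10.50 and 10.30, and 9.26, 9.25 and 9.09 in nsf1∆. Each stage lay below the one before it in both strains. It fell by 1.56 (SE 0.11, adjusted p = 3.4e-08) and by 1.79 (SE 0.11, adjusted p = 1.1e-08), so its signal dropped 2.95-fold and 3.47-fold. ATG12 itself, the ubiquitin-like protein, rose by 0.69 and 0.78 (adjusted p = 0.00024 and 9.2e-05). ATG7, the E1-like enzyme that activates both Atg12 and Atg8, fell by 0.78 and 0.77 (adjusted p = 0.0002 and 0.00023), all of it before 20%. ATG16, which joins the Atg12-Atg5 conjugate into a larger complex, lay nearest to the background at 3.78 to 5.03 on the 14 arrays, where RMA compresses changes, and did not pass in either strain (0.18 and 0.42).

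All 3 further genes of Atg8 conjugation, ATG8, ATG3 and ATG4, rose from 24 h to 85% in both strains. Over this span 38.0% of all probe sets rose in M2 and 37.0% in nsf1∆. ATG8, whose lipid-linked product coats the autophagosome and grows in amount with autophagy, read 10.99 and 10.84 at 24 h, then 11.63 and 11.44 at 20%, and 12.00, 11.79 and 11.58 at 85% in M2. In nsf1∆ it read 10.82 and 10.93, 11.58 and 11.55, and 12.52, 12.23 and 12.00. The M2 arrays of 20% and 85% overlapped, whereas in nsf1∆ each stage lay above the one before it. The rise was 0.87 in M2 (SE 0.16, limma adjusted p = 0.00022) and 1.37 in nsf1∆ (SE 0.16, adjusted p = 3.6e-06), and the difference between the rises did not pass (0.50, SE 0.22, adjusted p = 0.28).

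ATG3, the E2-like enzyme for Atg8, rose by 1.26 in M2 and 0.76 in nsf1∆ (adjusted p = 2.9e-06 and 0.00031). Its M2 arrays read 9.74 and 9.44 at 24 h and 10.86, 10.77 and 10.93 at 85%, and its nsf1∆ arrays 9.86 and 10.11, then 10.99, 10.63 and 10.61, without overlap. ATG4, the protease that trims Atg8 and frees it again, rose by 0.60 and 0.50 (adjusted p = 0.011 and 0.029). The ATG4 calls were lost without M2 replicate 1 at 24 h in M2 (adjusted p = 0.0669), and in nsf1∆ without nsf1∆ replicate 1 at 24 h (0.17, adjusted p = 0.453), replicate 2 at 85% (0.0542) or replicate 3 at 85% (0.0822), or with the replicate block (0.0576).

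The selective autophagy receptors and factors held the largest rises of the 40 genes. In M2 8 of these 9 genes rose from 24 h to 85% and ATG19 fell, where 38.0% of all probe sets rose and 35.2% fell. In nsf1∆ 7 rose, ATG19 fell and ATG33 did not pass, beside 37.0% and 36.0% of all probe sets. Of these 7, the rises of ATG34 and ATG36 were lost without nsf1∆ replicate 1 at 24 h (limma adjusted p = 0.198 and 0.392). The median change of the group was 1.03 in M2 and 0.67 in nsf1∆, beside 0.05 and 0.03 over all probe sets. ATG39, the receptor for the nuclear envelope and the endoplasmic reticulum around it, read 7.85 and 7.86 at 24 h, then 10.09 and 9.75 at 20%, and 10.91, 10.73 and 10.61 at 85% in M2. In nsf1∆ it read 7.24 and 8.51, 9.69 and 9.78, and 10.83, 10.93 and 10.95. The stages did not overlap in either strain, although the nsf1∆ arrays at 24 h differed by more than a doubling. It rose by 2.89 in M2 (SE 0.26, limma adjusted p = 3e-07) and 3.03 in nsf1∆ (SE 0.26, adjusted p = 2.1e-07), a 7.43-fold and an 8.17-fold rise, and 2.06 of the M2 rise came before 20%.

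ATG40, the receptor for cortical endoplasmic reticulum, followed a like course. It read 8.74 and 9.08, 10.69 and 10.56, and 11.02, 11.02 and 11.12 at the 3 stages in M2, and 8.72 and 9.61, 10.32 and 10.46, and 11.00, 10.59 and 10.70 in nsf1∆. The stages did not overlap. It rose by 2.14 (SE 0.21, adjusted p = 7.7e-07) and 1.60 (SE 0.21, adjusted p = 1.3e-05), with the early step alone past the threshold in both strains.

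ATG32, the mitochondrial outer membrane receptor of mitophagy, rose at both steps and more at the late one. It read 7.53 and 7.58, 8.46 and 8.35, and 9.69, 9.70 and 10.03 in M2, and 7.32 and 7.50, 8.05 and 8.07, and 9.64, 9.85 and 9.86 in nsf1∆. Replicates lay close together in every group, and the stages stood apart. It rose by 2.25 in M2 (SE 0.13, adjusted p = 6.8e-09) and 2.37 in nsf1∆ (SE 0.13, adjusted p = 5.1e-09), a 4.77-fold and a 5.17-fold rise. ATG33, another mitochondrial protein with a role in mitophagy, rose by 0.60 in M2 (adjusted p = 0.0058, or 0.0886 without M2 replicate 2 at 24 h) and changed by -0.10 in nsf1∆ (adjusted p = 0.6), and the difference between the strains did not pass (-0.70, SE 0.24, adjusted p = 0.15).

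ATG34, the receptor for alpha-mannosidase in starved cells, read 9.23 and 9.37, 10.89 and 10.41, and 10.29, 10.57 and 10.35 in M2, and 9.42 and 9.83, 10.54 and 10.75, and 10.14, 10.09 and 10.13 in nsf1∆. It was highest at 20% in nsf1∆, while in M2 the arrays at 20% and 85% overlapped. It rose by 1.35 between 24 h and 20% in M2 (SE 0.18, limma adjusted p = 5e-05) and by 1.02 in nsf1∆ (SE 0.18, adjusted p = 0.00078), and then fell by 0.53 in nsf1∆ (SE 0.16, adjusted p = 0.012, or 0.108 without nsf1∆ replicate 2 at 20%) and changed by -0.25 in M2 (adjusted p = 0.2). Over the whole fermentation the change was 1.10 in M2 (adjusted p = 3.3e-05) and 0.49 in nsf1∆ (adjusted p = 0.014), the latter 0.29 without nsf1∆ replicate 1 at 24 h (adjusted p = 0.198). ATG36, the receptor for peroxisomes, rose by 0.81 and 0.67 (adjusted p = 0.012 and 0.033). In M2 its adjusted p was 0.0605 without replicate 1 and 0.0501 without replicate 2 at 24 h, and in nsf1∆ 0.392 without replicate 1 at 24 h, 0.108 without replicate 2 at 85% and 0.112 without replicate 3 at 85%.

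ATG26, a sterol glucosyltransferase whose part in peroxisome breakdown is known from Komagataella phaffii, rose by 1.03 and 0.78 (adjusted p = 1.5e-05 and 0.00019). ATG20, a sorting nexin of the cytoplasm-to-vacuole pathway, rose by 0.58 and 0.64 (adjusted p = 0.0024 and 0.0012). ATG19, the receptor of that pathway for aminopeptidase I, was the exception. It read 9.72 and 9.60, 9.77 and 9.77, and 9.03, 9.08 and 9.05 in M2, and 9.64 and 10.12, 9.78 and 10.08, and 8.66, 8.84 and 8.90 in nsf1∆. Its 85% arrays lay below all earlier arrays in each strain. It fell by 0.60 in M2 (SE 0.15, adjusted p = 0.002) and by 1.08 in nsf1∆ (SE 0.15, adjusted p = 1.6e-05), and the difference between the falls did not pass (-0.48, SE 0.21, adjusted p = 0.26).

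**Figure D2:**
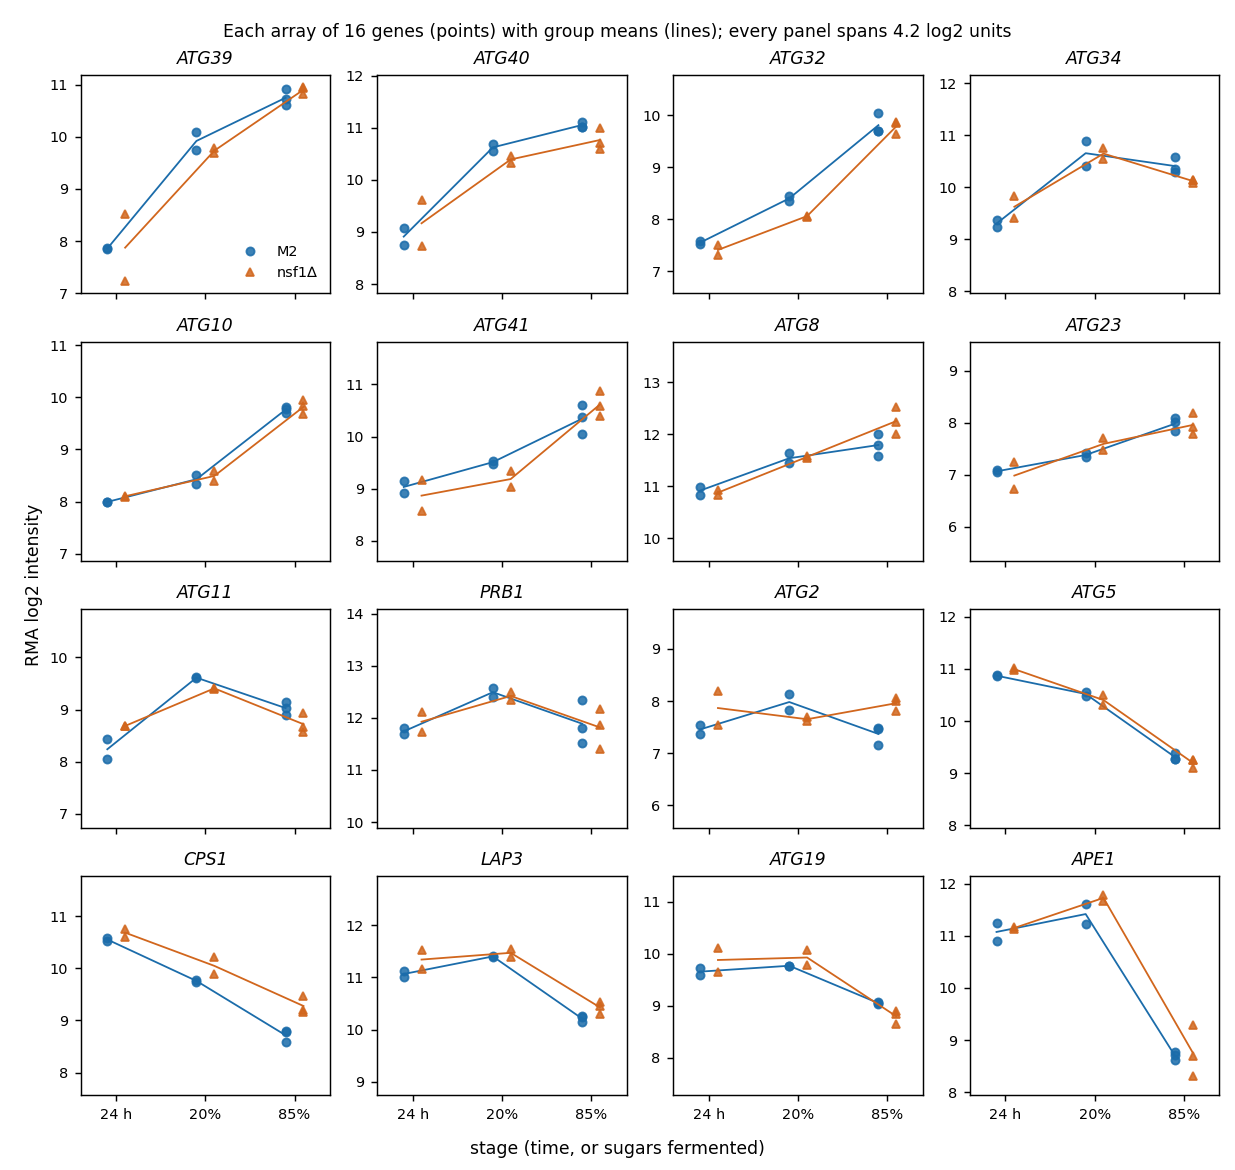
RMA log2 intensity (vertical axis) of 16 of the genes on each array at 24 h, 20% and 85% sugars fermented (horizontal axis), with M2 as circles and nsf1∆ as triangles, lines through the group means, and 4.2 log2 units in every panel. ATG39 and ATG32 rise and APE1 drops after 20% in both strains, while for CPS1 and ATG2 the 3 nsf1∆ arrays at 85% lie above the 3 M2 arrays.

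The genes for breakdown and release inside the vacuole did not pass at any step. ATG15, the lipase that opens autophagic bodies, read 5.73 to 7.12 in M2 and 5.81 to 6.94 in nsf1∆, and its 85% arrays alone spanned 5.76 to 7.12 in M2. ATG22, an exporter of amino acids from the vacuole, read 9.07 to 9.74 in M2 and 9.53 to 10.14 in nsf1∆. Their changes from 24 h to 85% were 0.33 and 0.15 in M2 and 0.04 and 0.00 in nsf1∆ (SE 0.36 for ATG15 and 0.18 for ATG22).

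The vacuolar proteases fell late. Between 20% and 85%, 5 of the 6 passed as lower in both strains and 0 passed as higher. Of all probe sets 31.9% were lower in M2 and 33.9% in nsf1∆. Among the 5 was PRB1, whose late fall was lost in 6 of 21 alternative settings in each strain. The median change of the 6 was -1.10 in M2 and -0.91 in nsf1∆, beside 0.01 and -0.03 over all probe sets. From 24 h to 85% the outcome was 4 lower and 1 higher in each strain. Over this span 35.2% of all probe sets were lower and 38.0% higher in M2, and 36.0% and 37.0% in nsf1∆. APE1, aminopeptidase I and the main cargo of the cytoplasm-to-vacuole pathway, read 11.25 and 10.90 at 24 h, then 11.23 and 11.61 at 20%, and 8.62, 8.77 and 8.71 at 85% in M2. In nsf1∆ it read 11.13 and 11.18, 11.67 and 11.79, and 9.28, 8.31 and 8.70. The 85% arrays lay far below all others in both strains, and those of nsf1∆ were more spread. Between 20% and 85% it fell by 2.71 in M2 (SE 0.22, limma adjusted p = 2.9e-07) and fell by 2.97 in nsf1∆ (SE 0.22, adjusted p = 1.2e-07), 6.57-fold and 7.82-fold lower. This was the largest late change among the 40 genes in either strain.

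CPS1, carboxypeptidase S, fell at both steps. It read 10.58 and 10.52 at 24 h, then 9.75 and 9.77 at 20%, and 8.77, 8.58 and 8.79 at 85% in M2, and 10.61 and 10.76, 9.88 and 10.21, and 9.47, 9.15 and 9.21 in nsf1∆. No stage overlapped with another. Over the fermentation it fell by 1.84 on the log2 scale in M2 (SE 0.14, adjusted p = 5e-08) and fell by 1.41 in nsf1∆ (SE 0.14, adjusted p = 6.4e-07). LAP3, a cysteine aminopeptidase, read 11.02 and 11.12, 11.42 and 11.39, and 10.14, 10.24 and 10.25 in M2, and 11.16 and 11.53, 11.40 and 11.55, and 10.46, 10.30 and 10.52 in nsf1∆. Its 85% arrays lay below all others, and between 20% and 85% it fell by 1.19 (SE 0.13, adjusted p = 3.2e-06) and by 1.05 (SE 0.13, adjusted p = 9.8e-06). PRC1, carboxypeptidase Y, fell by 1.15 and 1.16 over the same step (adjusted p = 1.3e-05 and 1.1e-05).

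PEP4 and PRB1 behaved differently from the peptidases. PEP4, proteinase A, which activates the other vacuolar hydrolases, read 12.26 and 12.28, 13.05 and 13.01, and 12.82, 12.70 and 12.75 in M2, and 12.35 and 12.75, 13.03 and 13.20, and 12.95, 12.90 and 12.93 in nsf1∆. It was lowest at 24 h and highest at 20% in both strains. From 24 h to 85% it rose by 0.48 in M2 (SE 0.12, adjusted p = 0.003) and by 0.37 in nsf1∆ (SE 0.12, adjusted p = 0.015), or by 0.17 without nsf1∆ replicate 1 at 24 h (adjusted p = 0.257). PRB1, proteinase B, read 11.68 and 11.80, 12.58 and 12.41, and 11.80, 11.53 and 12.34 in M2, and 11.73 and 12.12, 12.34 and 12.50, and 11.87, 11.40 and 12.17 in nsf1∆. Its 20% arrays were the highest, and its 85% arrays spanned those of 24 h. PRB1 rose by 0.75 (SE 0.26, adjusted p = 0.027) and fell by 0.60 (SE 0.24, adjusted p = 0.039) in M2, and its changes in nsf1∆ were 0.49 (adjusted p = 0.15) and -0.60 (adjusted p = 0.039). Each of these calls was lost without single arrays, with adjusted p up to 0.124 for the M2 rise, 0.175 for the M2 fall (both without M2 replicate 1 at 20%) and 0.177 for the nsf1∆ fall (without nsf1∆ replicate 2 at 20%).

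**Figure D3:**
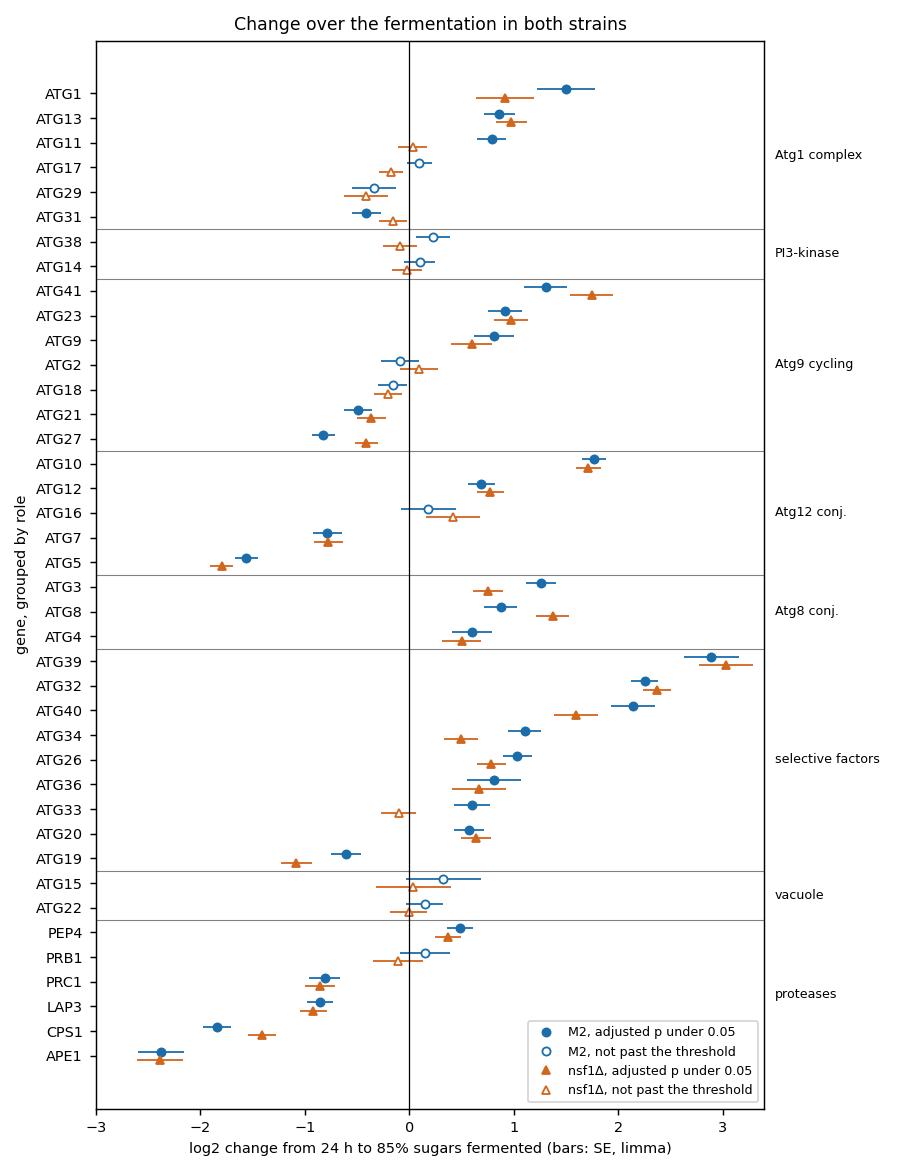
Change in log2 intensity from 24 h to 85% sugars fermented (horizontal axis) of each gene (vertical axis, grouped by role) in M2 (circles) and nsf1∆ (triangles), with bars of 1 SE from limma and filled symbols for adjusted p under 0.05. Symbols of the selective factors lie mostly right of 0, with ATG39 at 2.89 and 3.03, and those of the proteases mostly left, with APE1 at -2.37 and -2.39.

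Each step was also tested by itself. Between 24 h and 20% in M2, 17 of the 40 genes rose and 4 fell, where 26.5% and 26.4% of all probe sets did, with a median change of 0.37 beside 0.02. Between 20% and 85%, 8 rose and 12 fell, where 33.1% and 31.9% did, with a median of -0.14 beside 0.01. In nsf1∆ the early step gave 11 higher and 3 lower, where 19.9% and 18.3% of all probe sets were, and the late step 9 and 13, where 31.6% and 33.9% were. In both strains the late falls thus came at about the share of all probe sets. Without nsf1∆ replicate 1 at 24 h the early count was 6 higher and 3 lower, and without replicate 2 it was 13 and 3, while the share of all probe sets called in either direction went from 38.2% to 26.0% and 31.8%. Of the 17 early rises in M2, 10 passed in nsf1∆ too, and 3 of the 4 early falls did. This overlap was not counted over all probe sets either.

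In M2 4 genes rose at both steps (ATG10, ATG26, ATG32 and ATG39). A further 10 rose early without passing later, among them ATG1, ATG8 and ATG40, and 4 rose late alone (ATG12, ATG20, ATG23 and ATG41). These were 10%, 25% and 10% of the genes, beside 9.39%, 9.55% and 15% of all probe sets. ATG27, ATG5 and CPS1 fell at both steps, ATG7 fell early alone, and 6 genes fell late alone (APE1, ATG18, ATG19, ATG21, LAP3 and PRC1). These were 7.5%, 2.5% and 15% of the genes, beside 10.3%, 7.44% and 14.1% of all probe sets. ATG11, ATG2 and PRB1 rose and then fell, 7.5% of the genes beside 7.53% of all probe sets. No gene fell and then rose, a course seen for 8.71% of all probe sets in M2 and 4.6% in nsf1∆. Both steps of a strain share the 20% arrays, so an error there moves them in opposite directions. Many of these step calls did not hold on leaving out 1 array, besides those of ATG2, ATG14, ATG18, ATG34 and PRB1, which are given with each gene. Among M2 falls, limma's adjusted p reached 0.12 for the early fall of ATG5, 0.143 for the late fall of ATG27 and 0.449 for the late fall of ATG21, each without M2 replicate 1 at 20%, and the late calls of ATG27 and ATG21 were also lost with the replicate block (0.0777 and 0.0934) and over every probe set of the table (0.0629 and 0.0718). Among late rises it reached 0.108 for ATG39, 0.0818 for ATG26 and 0.088 for ATG20, each without M2 replicate 2 at 20%. Among early rises it reached 0.0894 for ATG10, 0.1 for ATG9, 0.0693 for ATG8 and 0.0576 for ATG36 without M2 replicate 1 at 20%, and 0.0864 for ATG13 without M2 replicate 2 at 24 h. In nsf1∆ the early calls of ATG10 (up to 0.197), ATG23 (0.182), ATG36 (0.183), ATG8 (0.051), PEP4 (0.0736) and CPS1 (0.0666) and the late calls of ATG20 (0.0662) and ATG33 (0.066) were lost in the same way.

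**Figure D4:**
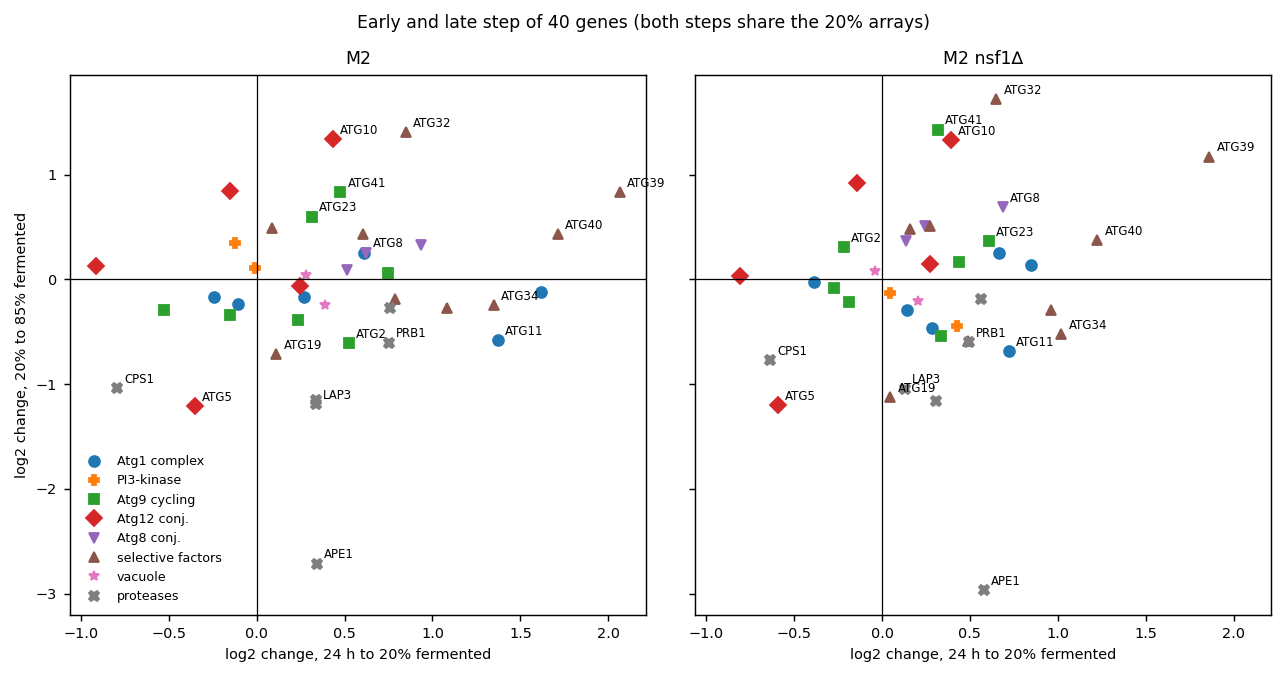
Log2 change from 24 h to 20% (horizontal axis) against that from 20% to 85% sugars fermented (vertical axis) of each of the 40 genes, by role, in M2 (left) and nsf1∆ (right). ATG39 lies far right and APE1 far below in both strains, and the upper left part of each panel, where a gene falls and then rises, holds no gene that passed at both steps.

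Between the strains few of the 40 genes differed. At 24 h and at 20% limma called 0 of them at an adjusted p under 0.05, where 0.127% and 0.346% of all probe sets were called. At an unadjusted p under 0.05 there were 4 and 2 genes, beside 9.80% and 14.7% of all probe sets. At 85%, where 8.84% of all probe sets were called (4.95% as higher in nsf1∆), ATG2 and CPS1 passed, both higher in nsf1∆, and 5 genes had an unadjusted p under 0.05, beside 25.8% of all probe sets. The differences at 85% ranged over the 40 genes from -0.31 for ATG11 to 0.59 for ATG2. ATG8 was next after those called, 0.46 higher in nsf1∆ (SE 0.14, adjusted p = 0.061), with 12.00 to 12.52 on the nsf1∆ arrays and 11.58 to 12.00 on those of M2. It passed with the replicate block (adjusted p = 0.0214), on a repeated quantile normalization (0.0342), with an intensity trend (0.0467) and without nsf1∆ replicate 3 at 85% (0.58, adjusted p = 0.0324).

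CPS1 at 85% read 9.47, 9.15 and 9.21 in nsf1∆ against 8.77, 8.58 and 8.79 in M2, and the strains did not overlap. It was 0.56 higher in nsf1∆ (SE 0.12, limma adjusted p = 0.016), a 1.48-fold difference, and without M2 replicate 2 at 85% the difference was 0.49 (adjusted p = 0.0592). The strain difference of CPS1 was 0.13 at 24 h and 0.29 at 20% (adjusted p = 0.81 and 0.39). Its falls over the fermentation differed by 0.43 between the strains (SE 0.19, adjusted p = 0.27).

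ATG2, the protein that moves lipids into the growing membrane, read 8.06, 8.00 and 7.82 in nsf1∆ at 85% against 7.47, 7.15 and 7.49 in M2, again without overlap. It was 0.59 higher in nsf1∆ (SE 0.16, limma adjusted p = 0.04), a 1.51-fold difference. The call did not hold without any one of several arrays, and the adjusted p was highest without M2 replicate 2 at 85% (0.138, difference 0.48). Its courses also looked unlike. M2 read 7.37 and 7.54 at 24 h, 8.13 and 7.83 at 20% and lower again at 85%, while nsf1∆ read 7.54 and 8.19, then 7.69 and 7.61, and was higher again at 85%. The M2 rise of 0.53 passed (SE 0.20, adjusted p = 0.039), as did the M2 fall of 0.61 (SE 0.18, adjusted p = 0.009), but without M2 replicate 1 at 20% they were 0.38 (adjusted p = 0.226) and -0.47 (adjusted p = 0.0983). The difference between the strains in the late step of ATG2 was 0.92 (SE 0.25) and did not pass (adjusted p = 0.15).

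The differences in course between the strains were tested as interactions, and limma called 0 of the 40 genes for the early step, the late step and the whole fermentation, where 1.60%, 0.200% and 2.00% of all probe sets were called. At an unadjusted p under 0.05 there were 4, 2 and 8 genes, beside 15.5%, 13.9% and 17.3% of all probe sets. The whole-fermentation change of ATG11, 0.79 in M2 (SE 0.14, adjusted p = 0.00018) and 0.03 in nsf1∆ (adjusted p = 0.84), gave the lowest of these adjusted p (0.077), with a difference of -0.76 (SE 0.20). It passed without nsf1∆ replicate 1 at 85% (-0.86, adjusted p = 0.0385). ATG40 passed without nsf1∆ replicate 1 at 24 h (-0.99, adjusted p = 0.0388). With 2 or 3 arrays a group, an adjusted p above the threshold does not show that the strains acted alike.

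**Figure D5:**
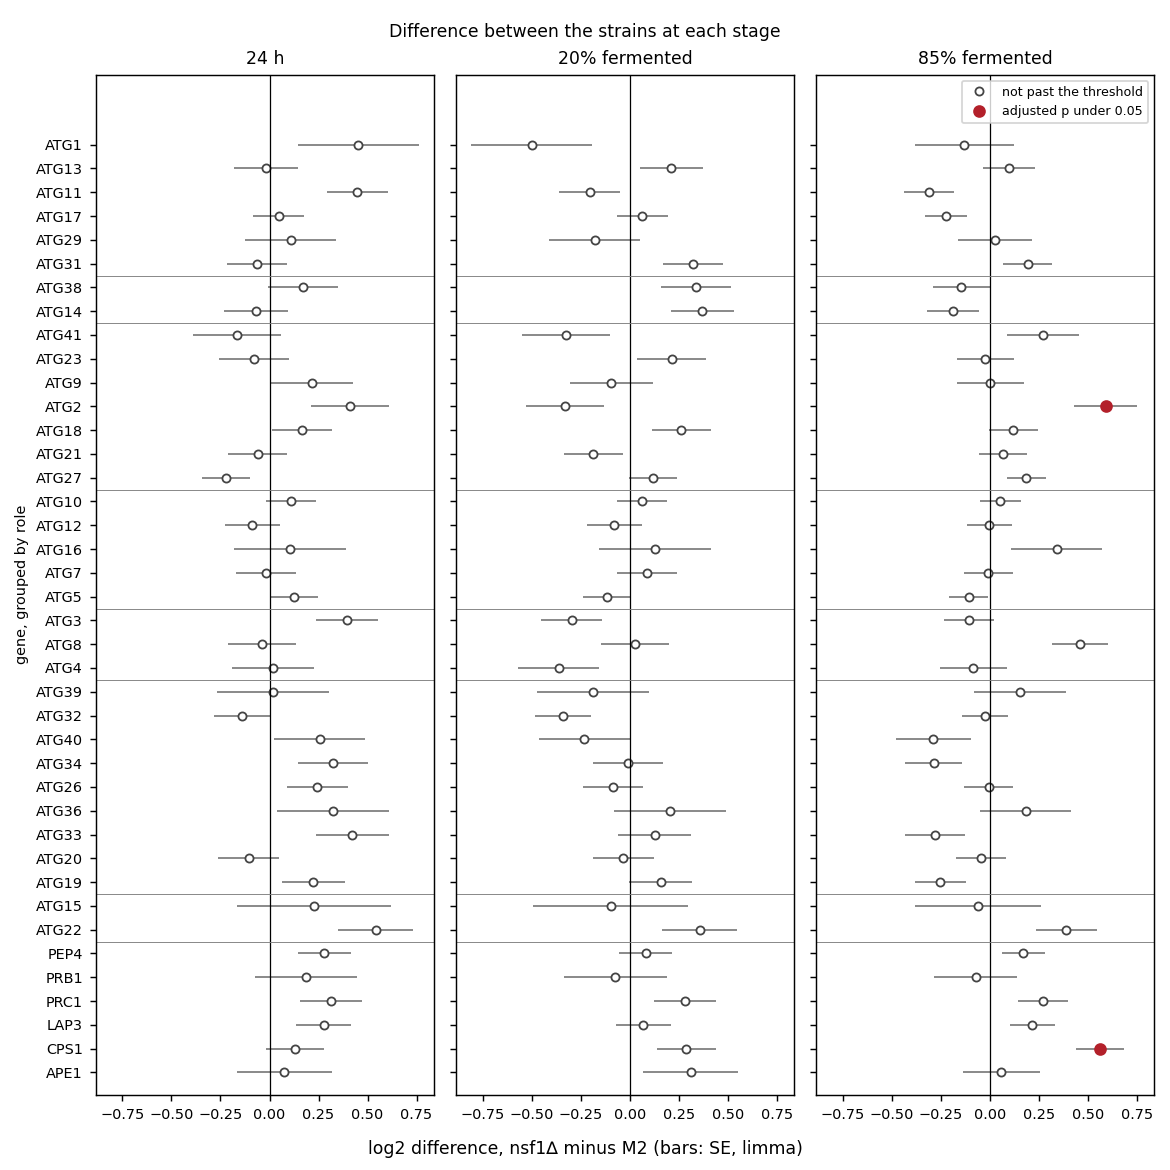
Difference in log2 intensity between nsf1∆ and M2 (horizontal axis, nsf1∆ minus M2, bars of 1 SE from limma) for each gene (vertical axis, grouped by role) at 24 h, 20% and 85% sugars fermented. Filled symbols, for adjusted p under 0.05, appear at 85% alone, for ATG2 at 0.59 and CPS1 at 0.56.

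Genes that act around the autophagy machinery moved in both directions from 24 h to 85% in M2, a span over which 38.0% of all probe sets rose and 35.2% fell (37.0% and 36.0% in nsf1∆), and nothing particular to these small lists is read from their counts. Of 17 upstream regulators 8 rose and 5 fell, and in nsf1∆ 5 rose and 8 fell. RPH1, a histone demethylase that represses ATG genes in fed cells, rose by 2.14 in M2 and 1.89 in nsf1∆ (limma adjusted p = 6.3e-06 and 2.1e-05), and LST8, a TOR complex subunit, by 1.80 and 1.49. NPR3 and NPR2, which restrain TOR when nitrogen is short, fell by 0.89 and 0.83 in M2. Of 8 factors that autophagy shares with other routes 2 rose and 5 fell, and in nsf1∆ 2 rose and 4 fell. SNX4, the symbol under which ATG24 was measured, rose by 0.46 in M2 (adjusted p = 0.0063). VAC8, a vacuole membrane protein that anchors the autophagosome assembly site, fell by 2.01 in M2 and fell by 2.02 in nsf1∆ (adjusted p = 2.5e-08 in both).

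Of 12 genes for docking and fusion with the vacuole 3 rose and 5 fell in M2. The vesicle SNARE VTI1 rose by 0.97, and YPT7, the Rab GTPase of the vacuole, fell by 0.95. Of 5 other vacuolar hydrolases 2 rose and 1 fell. PHO8, the vacuolar alkaline phosphatase, rose by 1.59 in M2 and 0.66 in nsf1∆ (adjusted p = 2.2e-05 and 0.017), and APE3, aminopeptidase Y, fell by 1.28 and 1.15. Of 3 inhibitors of vacuolar proteases 2 rose and 0 fell in M2, and 1 rose and 0 fell in nsf1∆. PAI3, which blocks proteinase A, rose by 2.60 and 2.17 (adjusted p = 1.8e-07 and 1.1e-06). PBI2, which blocks proteinase B, rose by 0.41 in M2 (adjusted p = 0.03) and changed by -0.03 in nsf1∆ (adjusted p = 0.87). The remaining inhibitor, TFS1, did not pass in either strain. Of 11 vacuolar amino acid transporters 3 rose and 6 fell in M2. YPQ1 fell by 2.11 (adjusted p = 7.5e-08), AVT1 fell by 1.92 (adjusted p = 8.2e-09), and VBA2 rose by 1.13 (adjusted p = 6.7e-06).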

How the data were processed

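RNA of M2 and M2 nsf1∆ was measured on 14 Affymetrix Yeast Genome 2.0 arrays, whose labels give the strain and stage of each sample and so its group. The authors made log2 intensities from the probe signals with RMA (background correction, quantile normalization and a summary per probe set, version not stated) and deposited them as 1 table, which gives no absolute amount of RNA and compresses changes near the background. Of its 10928 probe sets, 5498 were paired with 1 S. cerevisiae gene through the platform annotation and RefSeq, and 1746 S. pombe, 213 control, 1 with several genes and 3470 with no gene here were left out of the tests. The genes described and the other gene lists were chosen with earlier results of these data known, so their direction is no independent evidence.

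All contrasts came from 1 limma fit (3.58.1, R 4.3.3) with a mean for each of 6 groups (8 residual degrees of freedom and 5.14 from the prior), tested on simulated data first. Within a contrast p-values were adjusted by Benjamini-Hochberg over all 5498 probe sets. The p-values measure the spread between these arrays, whose number limits the precision. Tables were handled and figures drawn with Python 3.11.15, numpy 2.4.6, pandas 2.3.3, scipy 1.17.1 and matplotlib 3.10.9. Every array was given for the 5 largest rises and 5 largest falls that passed in both strains, for genes called between strains or in opposite steps, and for ATG5, ATG23, CPS1 and ATG8. ATG1, ATG3, ATG14, ATG27 and PEP4 were given in the same way, and VPS30 and VPS34 named, after their values were seen. From the other lists up to 2 genes each way were named. Alternatives left out each array in turn, used array weights, let the prior follow intensity, blocked on replicate number, dropped the dimmest 25% of probe sets or kept every probe set, shifted arrays to a common median, repeated the quantile normalization, required a change of at least 1 on the log2 scale, or ran the methods' t-test. An unadjusted p was added after seeing the data. Promoter sequences were not analysed here.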

Additional observations from a re-analysis of the deposited data

Results flagged for a closer look

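The probe set of the deleted gene NSF1 carries a signal that belongs to no comparison of the autophagy genes. On 4 of the 7 nsf1∆ arrays it lay above 3.62, the 95th percentile of the S. pombe probe sets, with 4.28 on replicate 2 at 20% and 3.63, 3.95 and 5.90 on replicates 1, 2 and 3 at 85%. The M2 arrays at 85% gave 13.12, 12.90 and 13.19. The strain differences of CPS1 and ATG2 at 85% were 0.60 (limma adjusted p = 0.027) and 0.66 (adjusted p = 0.0465) without nsf1∆ replicate 3 at 85%, and ATG8, which had not passed with that array, passed as well (0.58, adjusted p = 0.0324).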

How the results depend on the processing

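The number of genes called stayed within 1.5 times its value for the 6 comparisons of stages with array weights, an intensity trend, a common array median, a repeated quantile normalization, the replicate block, every probe set, or the dim ones dropped, where 31 of the 40 genes were left to test. With a change of at least 1 on the log2 scale required, the counts fell to 6, 7 and 12 in M2 and 3, 9 and 10 in nsf1∆ for 24 h to 20%, 20% to 85% and 24 h to 85%, beside 16.2%, 26.3% and 39.0% of all probe sets in M2 and 9.11%, 26.8% and 37.2% in nsf1∆. Between the strains at 85% the count was 0, beside 0.746%. Leaving out 1 array at a time gave 14 to 23, 15 to 22 and 27 to 30 genes in M2 and 9 to 16, 18 to 24 and 20 to 28 in nsf1∆, with 9 without nsf1∆ replicate 1 at 24 h.

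The strain difference at 85% was the least stable. It held 2 genes, 1 of the 31 left without the dimmest probe sets (CPS1, as ATG2 was among those dropped and not tested), 1 over all probe sets, 3 on the repeated quantile normalization and 3 with an intensity trend (ATG8 in addition to ATG2 and CPS1), 4 with array weights (ATG2, CPS1, ATG11 and ATG22), 5 at an unadjusted p, 3 by the methods' t-test (0 after Benjamini-Hochberg) and 0 to 3 on leaving out an array, with 0 without M2 replicate 2 at 85%. It held 1 without any one of M2 replicates 1 and 2 at 24 h, M2 replicates 1 and 3 at 85%, nsf1∆ replicates 1 and 2 at 20% and nsf1∆ replicates 1 and 2 at 85%. ATG2 stayed higher in nsf1∆, by 0.48 to 0.66 (adjusted p 0.0123 to 0.138), and CPS1 by 0.46 to 0.62 (adjusted p 0.00995 to 0.0592). At an unadjusted p the strain counts at 24 h and 20% were 4 and 2, and the interactions 4, 2 and 8 for the early step, the late step and the whole fermentation. Leaving out an array gave 0 at 24 h, 0 at 20%, and 0 to 1, 0 and 0 to 1 for the interactions, where ATG2 passed in the early step without nsf1∆ replicate 1 at 24 h (-1.06, adjusted p = 0.0318). With array weights 1 gene, ATG11, passed for the whole fermentation.

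Same-numbered arrays deviated from their group means with r between -0.51 and 0.57, above 0.1 in 9 of 31 pairs. Pairs of other numbers gave -0.46 to 0.51, above 0.1 in 16 of 50. In a group of 2 arrays the deviations are mirror images of each other, so these r are not independent. They cannot show whether the numbers pair the arrays. At 85%, r between same-numbered arrays of the strains was 0.03, 0.23 and 0.57 for replicates 1, 2 and 3. Whether the 85% arrays of the strains are paired was not tested. With the replicate block the counts were 21, 18 and 30 in M2, 14, 23 and 25 in nsf1∆, and 2 between the strains at 85%, where ATG8 passed (adjusted p = 0.0214) and ATG2 did not (adjusted p = 0.0543). The block also ended the nsf1∆ calls of ATG4 and ATG21 from 24 h to 85%, the M2 late falls of ATG18, ATG21 and ATG27 and the M2 early rise of ATG2.

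Direction turned in 28 cases, all of genes whose change from 24 h to 85% had not passed, and the cause was not tested. On leaving out 1 array at a time, the change in M2 ran from -0.74 to 0.0683 for ATG29, from -0.18 to 0.55 for ATG16, from -0.17 to 0.0239 for ATG2, from -0.0478 to 0.65 for ATG15, from -0.0006 to 0.20 for ATG14 and from -0.0751 to 0.33 for PRB1. In nsf1∆ it ran from -0.0705 to 0.11 for ATG11, from -0.23 to 0.42 for ATG2, from -0.27 to 0.29 for ATG15, from -0.0982 to 0.12 for ATG22, from -0.21 to 0.17 for ATG14, from -0.23 to 0.0527 for ATG38, from -0.30 to 0.0975 for PRB1 and from -0.28 to 0.0810 for ATG33. With the replicate block ATG15 (-0.0174) and PRB1 (-0.0526) turned in M2, and ATG15 (-0.30) and ATG14 (0.0040) in nsf1∆. The repeated quantile normalization turned ATG16 in M2 (-0.37) and in nsf1∆ (-0.20), and ATG15 (-0.0863), ATG22 (0.0012) and PRB1 (0.0758) in nsf1∆. Array weights turned ATG11 (-0.0397) and ATG22 (0.0482) in nsf1∆. No gene had a second probe set, so another probe set of a gene could not be tried. With 2 or 3 arrays a group and array signals near the background for ATG16, small changes cannot be resolved.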
